A study of Rattus norvegicus with 60 samples.

Results

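The genes described here are 6 markers of the principal neurons of cortex and hippocampus: Cux2 and Fezf2 for layers of the cortex, and Kcnip4, Trpc6, Dsp and Tdo2 for the hippocampus. Every probe set that the array annotation gives to exactly 1 of these symbols was taken, which gave 9 probe sets of 31042 tested and 6 genes of 14217 with a symbol. Their values come from 60 Affymetrix arrays of rat hippocampus, cortex or striatum, 5 arrays in each of 12 groups. Per the labels, rats of strain SD received lithium chloride (LiCl, a mood stabilizer) at 0.2% in chow or vehicle chow, or lamotrigine (an anticonvulsant also used as a mood stabilizer) at 30 mg/kg by a daily injection under the skin or its vehicle, each for 21 days. One label field calls the tissue mouse, although organism, strain and array are those of rat, and another gives constant delivery for all samples, although titles and design text give chow or injection. The 10 animals of the injection arm gave all 3 regions, and regions of 1 animal are not independent. In the chow arm the hippocampal arrays carry partly different animal numbers from the cortical and striatal ones, so only some numbers recur. Each region is a piece of bulk tissue, so fewer cells of a type and less RNA per cell cannot be told apart.

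Principal neurons are the excitatory, glutamate-releasing projection neurons of cortex and hippocampus, and most neurons of the striatum are inhibitory medium spiny neurons instead. Cux2 encodes a homeobox transcription factor of upper-layer cortical neurons, and Fezf2 a zinc-finger factor that specifies deep-layer neurons projecting below the cortex. Trpc6 encodes a calcium-permeable cation channel, and Kcnip4 a calcium-binding subunit of A-type potassium channels. In the mouse, Dsp (desmoplakin, a protein of desmosomal junctions) and Tdo2 (tryptophan 2,3-dioxygenase, which opens the indole ring of tryptophan) mark mature granule cells of the dentate gyrus. Both are also expressed outside the brain, Dsp in epithelia and Tdo2 in liver.

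The promoter sequences of 4 of these genes are shown because Cux2, Fezf2 and Trpc6 shared a pattern across the cortical groups and Tdo2 did not. RefSeq promoters (build GRCr8) were found for 5 of the 6 symbols. The window is the 250 bases before the annotated start, 5′ to 3′ on the gene's strand, at chr12:40179032-40179281 (plus strand) for Cux2, chr15:15203943-15204192 (plus) for Fezf2, chr8:14043966-14044215 (plus) for Trpc6 and chr2:169585587-169585836 (minus) for Tdo2. Capitals mark TATAAA or GGGCGG on either strand and at any place in the window, the letters of a TATA box and a GC box.
Cux2: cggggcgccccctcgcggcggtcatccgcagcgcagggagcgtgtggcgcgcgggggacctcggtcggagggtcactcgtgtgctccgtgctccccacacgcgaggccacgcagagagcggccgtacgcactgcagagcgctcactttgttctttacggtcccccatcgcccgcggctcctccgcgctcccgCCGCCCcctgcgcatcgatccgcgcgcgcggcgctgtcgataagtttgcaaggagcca
Fezf2: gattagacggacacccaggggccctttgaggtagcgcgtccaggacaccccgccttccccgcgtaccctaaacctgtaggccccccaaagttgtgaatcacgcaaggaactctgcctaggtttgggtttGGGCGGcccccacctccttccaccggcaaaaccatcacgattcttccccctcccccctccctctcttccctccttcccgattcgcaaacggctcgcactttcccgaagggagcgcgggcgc
Trpc6: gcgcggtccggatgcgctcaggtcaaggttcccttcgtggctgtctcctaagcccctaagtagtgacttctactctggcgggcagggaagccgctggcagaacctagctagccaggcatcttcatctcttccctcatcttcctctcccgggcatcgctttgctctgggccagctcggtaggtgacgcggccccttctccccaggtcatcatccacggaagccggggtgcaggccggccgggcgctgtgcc
Tdo2: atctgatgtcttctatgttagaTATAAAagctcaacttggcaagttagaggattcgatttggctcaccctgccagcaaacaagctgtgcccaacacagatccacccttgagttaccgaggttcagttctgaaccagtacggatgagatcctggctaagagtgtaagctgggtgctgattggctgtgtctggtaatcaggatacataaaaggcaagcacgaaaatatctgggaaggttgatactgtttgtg
The Cux2 window had 72.4% G and C, the Fezf2 window 62.8% and the Trpc6 window 64.4%, against 45.2% in the Tdo2 window and a median of 51.2% over all 33469 windows. A GGGCGG match stood once in the Cux2 window and once in the Fezf2 window, and 30.5% of all windows hold one. The Tdo2 window held 1 TATAAA match, which 12.9% of all windows hold, and the Trpc6 window held neither motif. The Tdo2 match stood near the 5′ end of the window, far from the annotated start. The Dsp window, not printed, had 75.2% G and C and 4 GGGCGG matches. These are descriptions of letters in the window, not of factor binding.

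**Figure D1:**
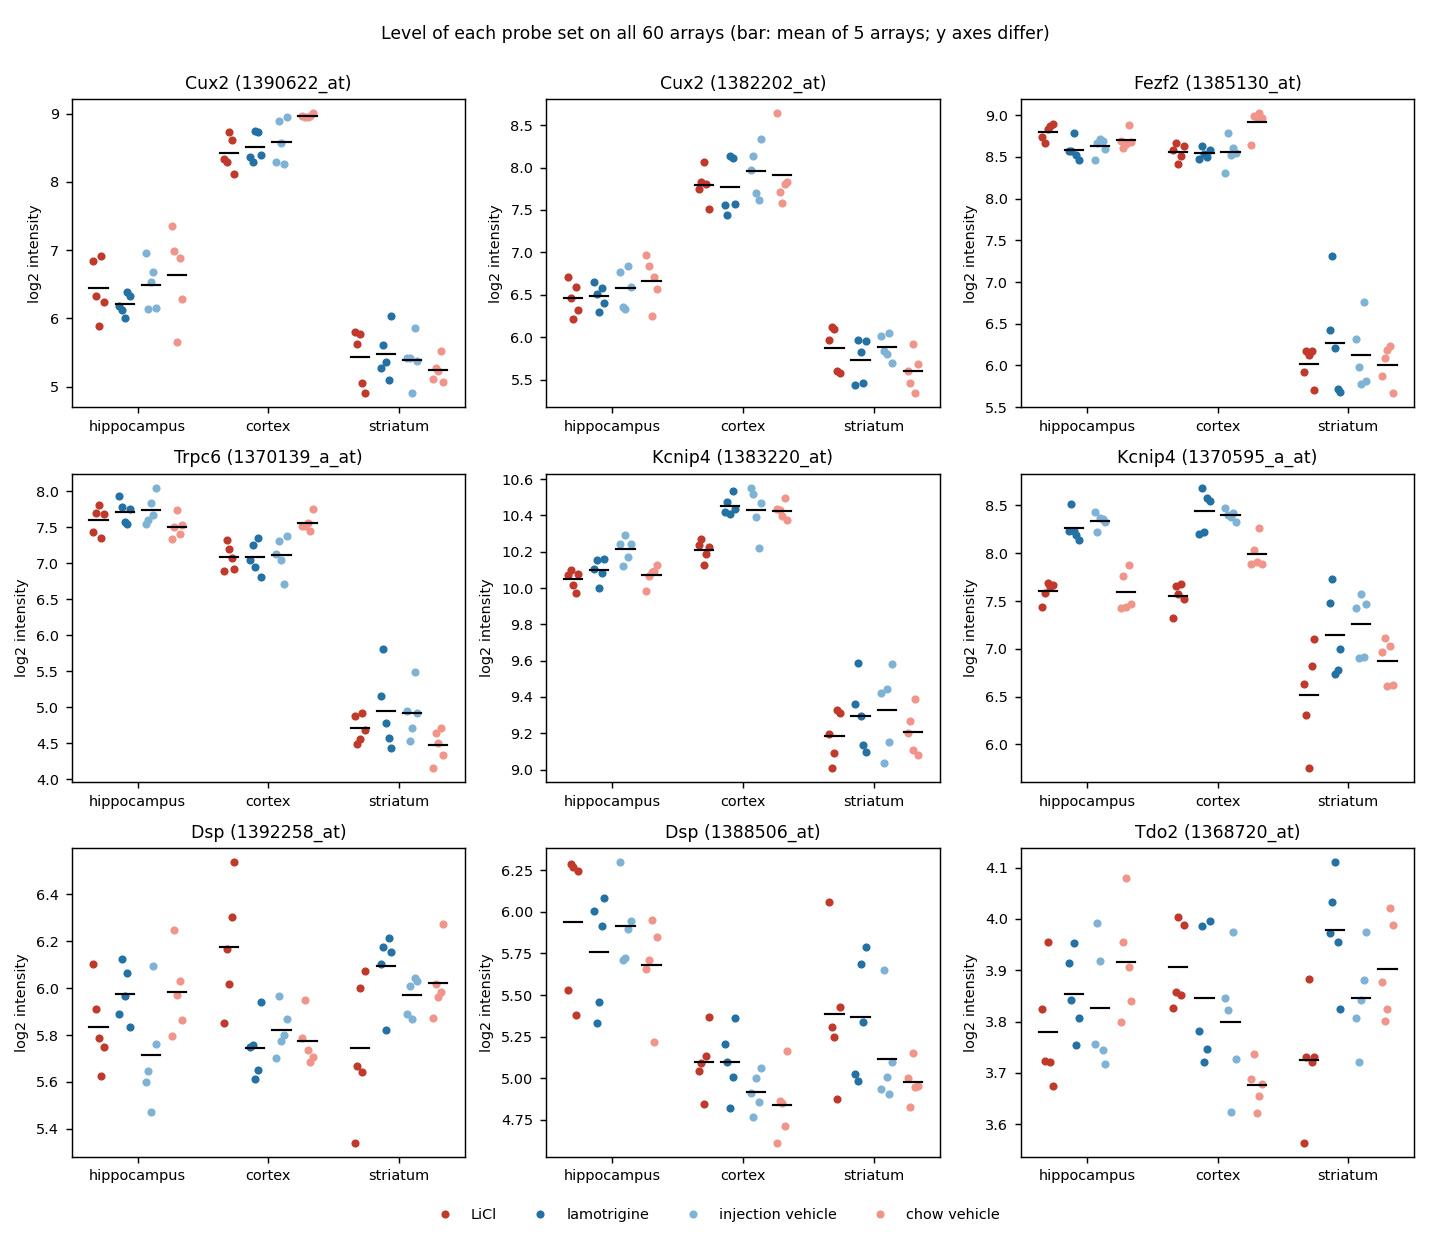
Log2 intensity (y axis, a scale of its own in each panel) of the 9 probe sets on each of the 60 arrays, with 1 point per array and a bar at the mean of 5 arrays. Cux2, Fezf2, Trpc6 and Kcnip4 were lowest in the striatum, Tdo2 lay between 3.56 and 4.11 on all arrays, and within the cortex the chow vehicle group had the highest mean for Cux2 (1390622_at), Fezf2 and Trpc6.

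The first comparison asked how far each gene marks its region, using the 10 vehicle arrays of each region. Levels are log2 intensities with the SD over arrays, differences carry the SE of the limma fit, and adjusted p-values are from limma over all 31042 probe sets, with a call at an adjusted p under 0.05. Between hippocampus and cortex 6 of the 9 probe sets were called, 3 higher in the hippocampus and 3 lower, beside 42.4% of all probe sets (21.3% higher and 21.1% lower). Between hippocampus and striatum 7 were called, all higher in the hippocampus, beside 50.9% of all (23.5% higher and 27.4% lower). Between cortex and striatum 8 were called, 6 higher and 2 lower in the cortex, beside 55.9% of all (24.7% higher and 31.2% lower). The tissue labels held for the striatum: all 12 measured genes of the medium spiny neuron list were lower both in the hippocampus (median difference -4.37) and in the cortex (median -4.20). Of 22 measured genes of the hippocampal list 15 were higher in the hippocampus than in the cortex and 2 were lower, with Fibcd1 (a CA1 marker in the mouse) 3.04 ± 0.12 and Prox1 (a dentate granule cell factor) 2.76 ± 0.10 higher. These counts include the genes described here, with Trpc6 and Tdo2 among the higher and Kcnip4 among the lower.

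Cux2 was the sharpest cortical marker of the 6. Its brighter probe set (1390622_at) averaged 6.56 ± 0.51 in the hippocampus against 8.78 ± 0.29 in the cortex, a difference of -2.21 ± 0.14 or 4.64-fold lower (adjusted p = 1.14e-19). The striatum averaged 5.32 ± 0.27, and the cortex exceeded it 11-fold (3.46 ± 0.14, adjusted p = 4.5e-29). The other probe set (1382202_at) gave the same order, with 6.62 ± 0.25 in the hippocampus, 7.93 ± 0.34 in the cortex and 5.74 ± 0.23 in the striatum. Hippocampal levels of Cux2 were scattered, with chow vehicle arrays at 7.36, 6.99, 5.65, 6.89 and 6.28.

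Fezf2 did not separate cortex from hippocampus. It averaged 8.67 ± 0.11 in the hippocampus and 8.74 ± 0.25 in the cortex, a difference of -0.08 with a 95% interval of -0.29 to 0.14 (adjusted p = 0.597). The sign differed by vehicle, with 0.07 for injection vehicle arrays alone (adjusted p = 0.755) and -0.23 for chow vehicle arrays alone (adjusted p = 0.275). The striatum lay at 6.07 ± 0.32, which the hippocampus exceeded 6.03-fold (adjusted p = 1.4e-28) and the cortex 6.36-fold (adjusted p = 2.08e-29). The Fezf2 probe set therefore marked both tissues against the striatum in these arrays, although the gene was listed as a marker of cortical layers.

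Trpc6 was high in both hippocampus and cortex. It averaged 7.62 ± 0.21 in the hippocampus, 7.34 ± 0.30 in the cortex and 4.70 ± 0.37 in the striatum, so the hippocampus exceeded the striatum 7.6-fold (adjusted p = 6.56e-31). The hippocampus exceeded the cortex by 0.28 ± 0.11 (adjusted p = 0.0289). This difference turned round with the chow vehicle arrays alone (-0.06, adjusted p = 0.805), since Trpc6 stood at 7.50 ± 0.16 in the hippocampus and 7.56 ± 0.11 in the cortex of those groups. It was also lost without any 1 of 5 of the 20 arrays compared, with adjusted p-values from 0.0183 to 0.0911 over all 20 omissions.

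By its brighter probe set Kcnip4 was lower in the hippocampus than in the cortex, against its listing. The brighter probe set (1383220_at) averaged 10.14 ± 0.09 in the hippocampus, 10.43 ± 0.09 in the cortex and 9.27 ± 0.18 in the striatum, and the difference between hippocampus and cortex was -0.29 ± 0.05 (adjusted p = 2.17e-06). The other probe set (1370595_a_at) gave 7.97 ± 0.42, 8.20 ± 0.24 and 7.06 ± 0.34 in the same order, and hippocampus and cortex differed by -0.23 with a 95% interval of -0.44 to -0.02 (adjusted p = 0.069). For 1370595_a_at this was -0.40 with chow vehicle arrays alone (adjusted p = 0.0357 in limma) and -0.06 with injection vehicle arrays alone (adjusted p = 0.795). For 1383220_at it was -0.35 (adjusted p = 5.79e-05) and -0.22 (adjusted p = 0.00894) in the same order. Both probe sets of Kcnip4 were lowest in the striatum.

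The 2 probe sets of Dsp disagreed. The one with the higher mean (1392258_at) differed little over regions, with 5.85 ± 0.24 in the hippocampus, 5.80 ± 0.10 in the cortex and 5.995 ± 0.12 in the striatum, where only cortex and striatum differed (-0.20 ± 0.07, adjusted p = 0.0192). The dimmer one (1388506_at) averaged 5.80 ± 0.28 in the hippocampus, 4.88 ± 0.16 in the cortex and 5.05 ± 0.23 in the striatum, and the hippocampus exceeded the cortex 1.89-fold (0.92 ± 0.12, adjusted p = 4.65e-09) with no overlap of arrays. Over the 12 group means the 2 probe sets correlated at r = -0.12, a description in which groups share arrays' normalization. Only the dimmer probe set behaved as a marker of the hippocampus.

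Tdo2 sat near the low end of the scale everywhere. All 60 arrays lay between 3.56 and 4.11, and only 7.55% of probe sets had a lower mean. It averaged 3.87 ± 0.12 in the hippocampus, 3.74 ± 0.11 in the cortex and 3.87 ± 0.10 in the striatum, so the hippocampus exceeded the cortex by 0.13 ± 0.05 (adjusted p = 0.0145) and differed from the striatum by 0.00 ± 0.05. The difference from the cortex was 0.03 for injection vehicle arrays alone (adjusted p = 0.784) and 0.24 for chow vehicle arrays alone (adjusted p = 0.00361). A marker level of Tdo2 RNA in the hippocampus was not detectable in these bulk arrays.

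The next comparison asked which of these genes changed with LiCl in the cortex. Of the 9 probe sets 7 were called, 5 lower and 2 higher, beside 13.4% of all probe sets (8.2% lower and 5.22% higher). The genes were put together with earlier results of this comparison known, so the count is a description and no support. Cux2, Fezf2, Trpc6 and both probe sets of Kcnip4 fell, while Dsp (1392258_at) and Tdo2 rose. The median difference over the 9 probe sets was -0.22, against -0.00115 over all probe sets, and 5 of the 9 had groups without overlap, beside 11.8% of all.

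Cux2 (1390622_at) was at 8.33, 8.28, 8.73, 8.61 and 8.11 in LiCl cortex, against 8.96, 8.95, 8.95, 8.96 and 9.005 in chow vehicle cortex. The groups did not overlap, and the chow vehicle arrays were much the tighter. The difference was -0.55 ± 0.13, or 1.46-fold lower (adjusted p = 0.0111). The other probe set of Cux2 had 7.74, 7.83, 8.06, 7.80 and 7.51 with LiCl and 8.64, 7.71, 7.58, 7.81 and 7.83 with chow vehicle. Its groups overlapped, and the difference of -0.12 had a 95% interval of -0.49 to 0.24 (adjusted p = 0.676), so the fall of Cux2 was seen by 1 of its 2 probe sets.

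Fezf2 was at 8.59, 8.67, 8.42, 8.51 and 8.63 in LiCl cortex, against 8.65, 8.99, 8.98, 9.02 and 8.97 in chow vehicle cortex. Only the first chow vehicle array lay among the LiCl arrays. The difference was -0.36 ± 0.08, or 1.28-fold lower (adjusted p = 0.00859). Within an array Cux2 minus Fezf2 averaged -0.15 ± 0.35 with LiCl and 0.04 ± 0.16 with chow vehicle, and the ranges overlapped.

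Trpc6 was at 6.89, 7.33, 7.20, 7.07 and 6.929 in LiCl cortex, against 7.51, 7.52, 7.56, 7.46 and 7.75 in chow vehicle cortex. All LiCl arrays lay below all chow vehicle arrays, by -0.48 ± 0.12 on average, or 1.39-fold lower (adjusted p = 0.0149).

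Both probe sets of Kcnip4 fell. The brighter one was at 10.24, 10.27, 10.13, 10.19 and 10.23 in LiCl cortex, against 10.43, 10.43, 10.40, 10.49 and 10.37 in chow vehicle cortex (-0.22 ± 0.05, adjusted p = 0.0132). The dimmer one was at 7.32, 7.66, 7.58, 7.68 and 7.52 with LiCl, against 7.89, 8.03, 7.91, 8.27 and 7.89 with chow vehicle (-0.44 ± 0.09, adjusted p = 0.00648). Neither pair of groups overlapped.

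Dsp (1392258_at) was at 5.85, 6.17, 6.02, 6.30 and 6.54 in LiCl cortex, against 5.79, 5.95, 5.74, 5.69 and 5.71 in chow vehicle cortex. One LiCl array lay inside the chow vehicle range, and the difference was 0.40 ± 0.10, or 1.32-fold higher (adjusted p = 0.0178). The probe set of Dsp that marked the hippocampus had 5.04, 5.09, 4.84, 5.13 and 5.37 with LiCl, against 4.61, 4.87, 4.85, 4.71 and 5.16 with chow vehicle, a difference of 0.25 with a 95% interval of 0.02 to 0.49 (adjusted p = 0.127). Within an array Dsp (1392258_at) minus Trpc6 averaged -0.91 ± 0.33 with LiCl and -1.79 ± 0.17 with chow vehicle, without overlap. It averaged -1.29 ± 0.23 with injection vehicle and -1.34 ± 0.31 with lamotrigine, and both of these groups overlapped the LiCl group. All probe sets between 5 and 6, the level of Dsp, had a median LiCl difference of 0.10 in the cortex, and those between 7 and 8, the level of Trpc6, of -0.07.

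Tdo2 was at 3.83, 3.86, 4.00, 3.85 and 3.99 in LiCl cortex, against 3.69, 3.74, 3.62, 3.65 and 3.68 in chow vehicle cortex. The groups did not overlap, yet the difference was 0.23 ± 0.07 (adjusted p = 0.0364) at a level where other probe sets moved the same way: the median difference over probe sets with a mean under 4 was 0.07, and it was 0.11 between 4 and 5. Probe sets between 8 and 9, the range of Cux2 and Fezf2 in the cortex, had a median difference of -0.10. The call for Tdo2 was lost in 7 of the 10 fits that left out 1 array, with adjusted p-values from 0.0431 to 0.0880 over all 10.

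The width of the cortical arrays' distributions (75th minus 25th percentile of log2 intensity) moved with the same groups. It averaged 3.37 ± 0.06 with LiCl and 3.58 ± 0.02 with chow vehicle, without overlap, and 3.47 ± 0.10 with lamotrigine and 3.53 ± 0.02 with injection vehicle. With this width as a covariate no probe set of the whole table was called for LiCl in the cortex, where 3083 had an unadjusted p under 0.05. With quantile normalization 3 of the 9 were called, Cux2 (1390622_at), Trpc6 and Kcnip4 (1370595_a_at), beside 4.38% of all. Of the calls lost, Dsp (1392258_at) still differed by 0.35 (adjusted p = 0.0598) and Fezf2 by -0.25 (adjusted p = 0.0587), while Kcnip4 (1383220_at) was at -0.13 and Tdo2 at 0.15. Width and treatment cannot be told apart in these arrays.

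Other genes of the upper-layer, deep-layer and hippocampal lists were counted next, all in cortical tissue. Leaving out the genes described here, 1 of 11 measured upper-layer genes fell and none rose, 0 of 17 deep-layer genes passed in either direction, and 5 of 18 hippocampal genes fell and none rose, beside the 8.2% of all probe sets that fell. Lamp5, an upper-layer marker, fell by 0.37 ± 0.10 (adjusted p = 0.0247). The genes of the hippocampal list with the largest falls in the cortex were Tpbg (-0.44 ± 0.14, adjusted p = 0.0384), Calb1, the calcium buffer calbindin (-0.40 ± 0.09, adjusted p = 0.00805), and Wfs1 (-0.38 ± 0.12, adjusted p = 0.0372). Of 8 markers of glutamatergic neurons in general, Rtn4r, a receptor for myelin inhibitors, fell by 0.38 ± 0.08 (adjusted p = 0.00673), and the other 7 did not pass.

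Meningeal, choroid plexus and microglial markers were mostly higher with LiCl in the cortex, few of them past the threshold. The interneuron list was lower, at 9.44 ± 0.07 with LiCl and 9.59 ± 0.07 with chow vehicle. Its gene Reln was called lower (-0.29 ± 0.09, adjusted p = 0.0389). All probe sets with a mean between 9 and 10, the level of the interneuron list, had a median difference of -0.11. The medium spiny neuron list averaged 7.43 ± 0.03 and 7.42 ± 0.12. All probe sets with a mean between 5 and 6, the level of the choroid plexus list, had a median difference of 0.10. It was 0.01 between 6 and 7, the meningeal level, and -0.10 between 8 and 9, the microglial level. The meningeal list averaged 6.78 ± 0.45 with LiCl (6.21 to 7.31) and 6.45 ± 0.24 with chow vehicle (6.23 to 6.76), with 13 of 14 genes higher, 2 called higher and 1 called lower. The choroid plexus list averaged 5.76 ± 0.09 with LiCl (5.62 to 5.86) and 5.41 ± 0.11 with chow vehicle (5.28 to 5.53), with 12 of 13 genes higher and 2 called higher. All 10 microglial genes were higher with LiCl and none was called. Their part in the differences of the 6 genes was not tested.

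**Figure D2:**
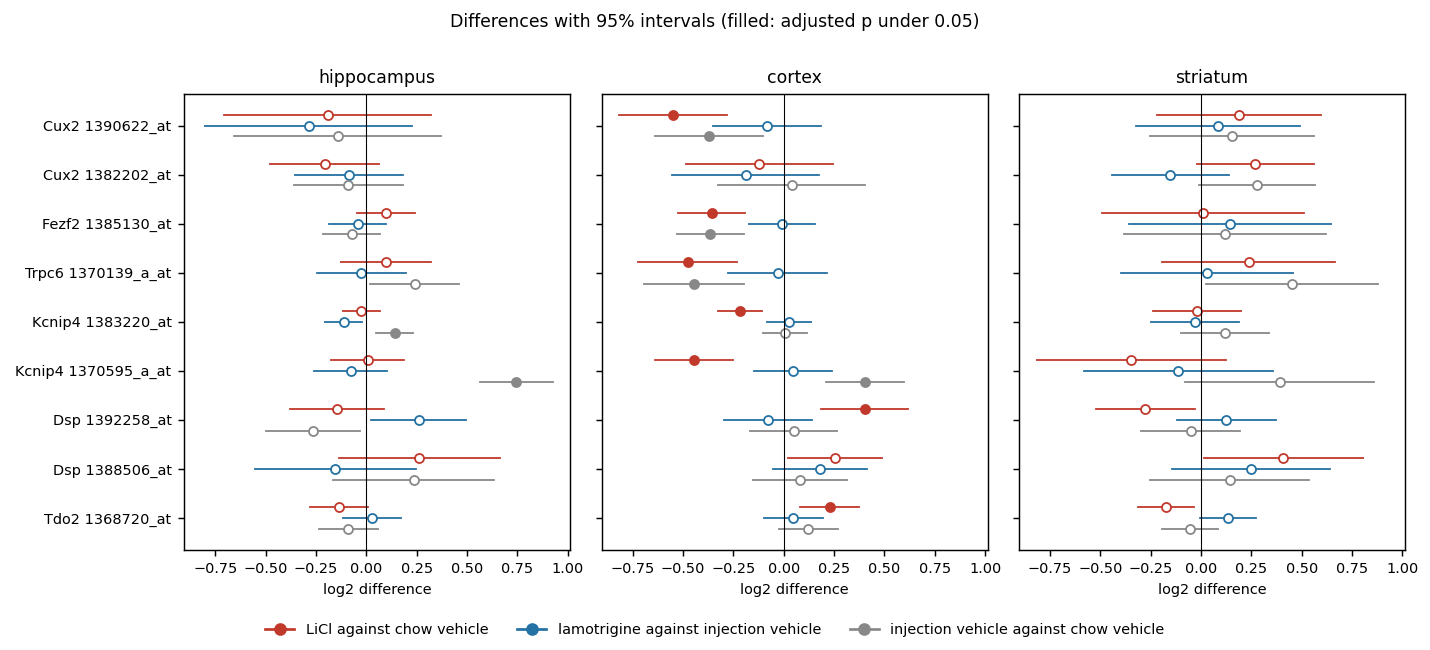
Differences in log2 intensity (x axis) with 95% intervals for the 9 probe sets in each region, for LiCl (over chow vehicle), lamotrigine (over injection vehicle) and the injection vehicle (over chow vehicle); filled points passed an adjusted p under 0.05. In the cortex the LiCl and the injection vehicle points lie together for Fezf2 (-0.36 and -0.37) and Trpc6 (-0.48 and -0.45), both set against the same chow vehicle arrays.

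Within the cortex the chow vehicle group had the highest mean for 3 of the genes. Its 5 arrays lay above all other 15 for Trpc6 and, by a margin under the spread of any other group, for Cux2 (1390622_at), and 4 of the 5 did for Fezf2. The other probe set of Cux2 did not share this, with 7.95 ± 0.30 for injection vehicle and 7.91 ± 0.42 for chow vehicle. Fezf2 averaged 8.56 ± 0.10 with LiCl, 8.55 ± 0.06 with lamotrigine and 8.56 ± 0.17 with injection vehicle, against 8.92 ± 0.16 with chow vehicle. Trpc6 averaged 7.08 ± 0.18 with LiCl, 7.09 ± 0.22 with lamotrigine and 7.12 ± 0.26 with injection vehicle, against 7.56 ± 0.11 with chow vehicle. Cux2 (1390622_at) averaged 8.42 ± 0.25, 8.51 ± 0.22 and 8.59 ± 0.32 in the same order, against 8.96 ± 0.02 with chow vehicle. For these genes the cortex of rats that received no LiCl but injections was as low, or nearly as low, as the cortex of rats that received LiCl.

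The 2 vehicles were compared directly, and their route of delivery cannot be told apart from anything else that differed between the arms. In the cortex 4 of the 9 probe sets were called, beside 18.9% of all. Fezf2 was 0.37 ± 0.08 lower with injection vehicle (-0.37, adjusted p = 0.00237), Trpc6 differed by -0.45 ± 0.12 (adjusted p = 0.0106) and Cux2 (1390622_at) by -0.37 ± 0.13 (adjusted p = 0.0461), while Kcnip4 (1370595_a_at) was 0.40 ± 0.09 higher (adjusted p = 0.00385). The Cux2 call was lost in 8 of the 10 fits that left out 1 array, with adjusted p-values from 0.0157 to 0.136 over all 10. The LiCl and the injection vehicle comparisons share the chow vehicle arrays, so their likeness is not independent.

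LiCl was therefore also set against the injection vehicle, a comparison chosen after the values were seen and confounded with the route of delivery. Fezf2 then differed by 0.01 ± 0.08 (adjusted p = 0.96), Trpc6 by -0.03 ± 0.12 (adjusted p = 0.874), Cux2 (1390622_at) by -0.18 ± 0.13 (adjusted p = 0.338) and Tdo2 by 0.11 ± 0.07 (adjusted p = 0.284). Kcnip4 kept its fall with both probe sets, by -0.22 ± 0.05 (adjusted p = 0.00402) and -0.85 ± 0.09 (adjusted p = 6.64e-07), and Dsp (1392258_at) its rise, by 0.35 ± 0.10 (adjusted p = 0.0181), beside 23.3% of all probe sets called. The differences of Fezf2, Trpc6, Cux2 (1390622_at) and Tdo2 thus passed with the chow vehicle alone, and those of Kcnip4 and Dsp (1392258_at) passed with either vehicle. The width of the arrays' distributions also lay apart here, at 3.29 to 3.44 with LiCl and 3.52 to 3.58 with injection vehicle. Width was not used as a covariate in this comparison, so width and treatment cannot be told apart in it either.

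**Figure D3:**
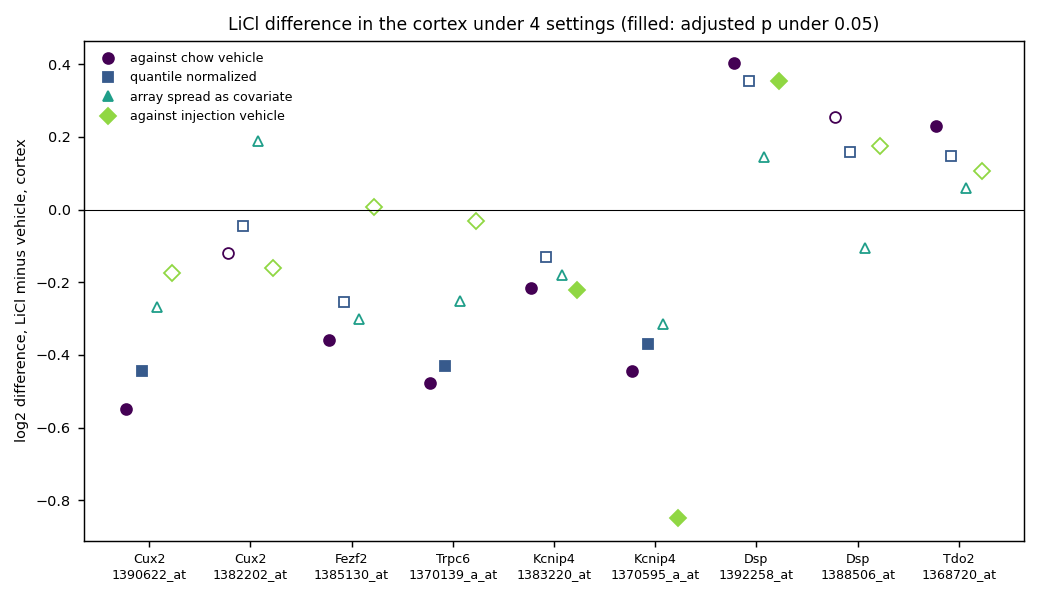
Difference in log2 intensity in the cortex (y axis, LiCl minus vehicle) for the 9 probe sets under 4 settings; filled symbols passed an adjusted p under 0.05. Against the injection vehicle Fezf2 (0.01) and Trpc6 (-0.03) lie at 0, while Kcnip4 and Dsp (1392258_at) pass with either vehicle. With array spread as a covariate no point is filled.

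Kcnip4 also differed between the vehicles of the 2 arms. Its probe set 1370595_a_at had 8.43, 8.22, 8.37, 8.36 and 8.33 in injection vehicle hippocampus, against 7.43, 7.76, 7.44, 7.88 and 7.47 in chow vehicle hippocampus. The groups lay well apart, at 1.68-fold higher with injection vehicle (0.74 ± 0.09, adjusted p = 2.74e-06). The brighter probe set was 0.14 ± 0.04 higher (adjusted p = 0.0289) with overlapping groups, a call lost in 5 of 10 fits that left out 1 array (adjusted p from 0.0137 to 0.0836). These 2 were the only probe sets of the 9 called between the vehicles in the hippocampus, beside 18.5% of all. In the striatum the dimmer probe set averaged 7.26 ± 0.32 with injection vehicle and 6.87 ± 0.23 with chow vehicle (0.39 ± 0.23, adjusted p = 0.356), and none of the 9 was called, beside 6.83% of all.

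In the cortex Kcnip4 (1370595_a_at) averaged 7.55 ± 0.14 with LiCl, 8.45 ± 0.22 with lamotrigine, 8.40 ± 0.05 with injection vehicle and 7.997 ± 0.16 with chow vehicle, so LiCl was lowest and both injected groups highest. Lamotrigine and injection vehicle differed by 0.05 ± 0.09 (adjusted p = 0.974). The brighter probe set had 10.21 ± 0.05 with LiCl and 10.43 to 10.45 in the other 3 cortical groups. The 2 probe sets of Kcnip4 thus agreed on the LiCl fall and differed on the vehicles of the cortex, where the brighter one gave 0.00 ± 0.05 and the dimmer one 0.40 ± 0.09.

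With LiCl in the hippocampus 0 of the 9 probe sets were called in limma, beside 0.235% of all. An unadjusted p under 0.05 was reached by 0 of the 9, beside 15.5% of all. Fezf2 averaged 8.80 ± 0.10 with LiCl and 8.70 ± 0.11 with chow vehicle, and Trpc6 averaged 7.60 ± 0.19 with LiCl and 7.50 ± 0.16 with chow vehicle. Tdo2 averaged 3.78 ± 0.11 with LiCl and 3.92 ± 0.11 with chow vehicle, a difference of -0.14 with a 95% interval of -0.28 to 0.01. Of the rest of the hippocampal list, Amigo2, an adhesion molecule of CA2 and CA3 neurons in the mouse, rose by 0.55 ± 0.09 (adjusted p = 0.0184), and it was the only 1 of the 22 measured genes that passed.

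With LiCl in the striatum 0 of the 9 were called, beside 0% of all, and 3 had an unadjusted p under 0.05, beside 12.3% of all. Dsp moved in opposite directions by probe set, with 5.74 ± 0.30 (LiCl) and 6.02 ± 0.15 (chow vehicle) for 1392258_at and 5.38 ± 0.43 (LiCl) and 4.97 ± 0.12 (chow vehicle) for 1388506_at. Tdo2 averaged 3.73 ± 0.11 with LiCl and 3.90 ± 0.10 with chow vehicle (-0.18 ± 0.07, adjusted p = 0.315).

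An F test in the fit of all 60 arrays asked whether the LiCl difference itself varied over the 3 regions, and 17.2% of all probe sets were called. It passed for Dsp (1392258_at, adjusted p = 0.00168), with differences of -0.15 in the hippocampus, 0.40 in the cortex and -0.28 in the striatum, and for Tdo2 (adjusted p = 0.00166), with -0.14, 0.23 and -0.18 in the same order. Probe sets as dim as these moved with the same signs: the median LiCl difference was -0.06, 0.10 and -0.04 for all between 5 and 6, and -0.04, 0.07 and -0.05 for all under 4, in hippocampus, cortex and striatum. Trpc6 passed as well (adjusted p = 0.0279), with 0.10, -0.48 and 0.24, and its call was lost in 4 of the 30 fits that left out 1 array (adjusted p from 0.0188 to 0.0701). Cux2, Fezf2, Kcnip4 and the other Dsp probe set did not pass (adjusted p from 0.133 to 0.874), so a LiCl fall of Cux2, Fezf2 or Kcnip4 particular to the cortex was not shown.

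No probe set of the 9 passed for lamotrigine in any region. In the hippocampus 0 were called beside 0.00322% of all, and in the cortex and striatum 0 were called beside 0% of all. In each region 0 of the 9 had groups without overlap, beside 2.14% of all in the hippocampus, 0.763% in the cortex and 0.557% in the striatum. An unadjusted p under 0.05 was reached by 2 of the 9 in the hippocampus, beside 9.87% of all, and by none in the other regions. The 2 were Kcnip4 (1383220_at), with 10.10 ± 0.06 for lamotrigine and 10.21 ± 0.07 for injection vehicle (adjusted p = 0.398), and Dsp (1392258_at), with 5.98 ± 0.12 for lamotrigine and 5.72 ± 0.24 for injection vehicle (adjusted p = 0.455). In the cortex Fezf2 differed by -0.01 with a 95% interval of -0.17 to 0.16 and Trpc6 by -0.03 with an interval of -0.28 to 0.22.

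The LiCl and lamotrigine differences were also set against each other, each taken against its own vehicle. In the cortex 0 of the 9 probe sets passed, beside 0.0129% of all (0.00322% higher and 0.00966% lower), although 6 had an unadjusted p under 0.05, beside 14.5% of all. The nearest was Kcnip4 (1370595_a_at), whose LiCl difference lay 0.49 ± 0.13 below its lamotrigine difference (-0.49, unadjusted p = 0.0012 in limma, adjusted p = 0.142). In the hippocampus and striatum 0 passed as well, beside 0% of all, with lowest adjusted p-values of 0.245 and 0.478. A difference between the drugs was not shown for any of the 6 genes.

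Array by array within groups, the 2 probe sets of Cux2 moved together (r = 0.65 over 60 deviations from the group means) and those of Kcnip4 did too (r = 0.66), whereas those of Dsp did not (r = -0.09). These deviations were set against the mean deviation of each marker list in each region, 351 correlations in all over 20 arrays each, with two-sided permutation p-values that shuffle arrays within groups, and 13 passed after Benjamini-Hochberg adjustment.

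In the hippocampus Cux2 (1390622_at) varied with the deep-layer list (17 genes without members; Pearson r = 0.91, permutation p = 2e-05, adjusted 0.00234; Spearman rho = 0.96, permutation p = 1e-05, the smallest the resamples can give, adjusted 0.00351) and against the hippocampal list (r = -0.81, permutation p = 0.00095, adjusted 0.0348; rho = -0.84, permutation p = 0.00042, adjusted 0.0184). The other probe set of Cux2 (1382202_at) had r = 0.70 with the deep-layer list and -0.78 with the hippocampal list, as descriptions. Without the 2 arrays farthest from the median of the list, r for 1390622_at was 0.91 and -0.74. With the rest of the upper-layer list, to which Cux2 itself belongs, r was -0.48 (permutation p = 0.102, adjusted 0.363; rho = -0.38, permutation p = 0.152, adjusted 0.479; r = -0.26 without the 2 farthest), so the deep-layer relation did not extend to it.

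In the cortex Cux2 ran against the deep-layer list with both probe sets (r = -0.69, permutation p = 9e-05, adjusted 0.00632, rho = -0.73, permutation p = 0.00015, adjusted 0.0111, for 1390622_at). For 1382202_at r was -0.85 (permutation p = 3e-05, adjusted 0.00263) and rho -0.74 (permutation p = 0.00033, adjusted 0.0165). Without the 2 farthest arrays r was -0.82 and -0.76. With the rest of the upper-layer list r was 0.43 for 1390622_at and 0.73 for 1382202_at, as descriptions. Both probe sets of Cux2 also varied with the astrocyte list (r = 0.63 and 0.71) and the endothelial list (r = 0.58 and 0.70) in the cortex, with adjusted permutation p-values from 0.00643 to 0.0348. The deep-layer list itself averaged 8.43 ± 0.12 with LiCl and 8.48 ± 0.16 with chow vehicle, so its level differed between these groups by less than their spread. The first chow vehicle array of the cortex, with the highest Cux2 by 1382202_at (8.64) and the lowest Fezf2 (8.65) of its group, had the lowest deep-layer mean of the 5. By 1390622_at the Cux2 of this array was not high, with a deviation of -0.003 from the group mean.

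In the striatum Trpc6 followed the deep-layer list (r = 0.89, permutation p = 2e-05, adjusted 0.00234; rho = 0.88, permutation p = 2e-05, adjusted 0.00351) and the hippocampal list (r = 0.87, permutation p = 1e-05, the smallest possible, adjusted 0.00234; rho = 0.88, permutation p = 3e-05, adjusted 0.00351). Without the 2 farthest arrays r was 0.81 and 0.86. Fezf2 had r = 0.79 with the deep-layer list (permutation p = 0.00215), which missed the threshold after adjustment (0.0531; rho = 0.76, permutation p = 0.00299, adjusted 0.075; r = 0.70 without the 2 farthest). The second lamotrigine array of the striatum was highest for both genes, at 7.32 for Fezf2 and 5.80 for Trpc6, and the fourth injection vehicle array came next, at 6.76 and 5.49.

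The hippocampal probe set of Dsp (1388506_at) moved with choroid plexus genes in the striatum, and as closely with meningeal and fibroblast genes. Its deviations had r = 0.84 with the choroid plexus list and 0.83 with the meningeal list, both as descriptions. In the 5 striatal arrays with a choroid plexus mean of 8.21 to 8.83 it lay between 5.31 and 6.06 (median 5.68), and in the other 15, with means of 5.32 to 6.29, it lay between 4.83 and 5.43 (median 5.001), so 4 of the 5 lay above all 15. Of the 5, the LiCl group held 2, lamotrigine 2, injection vehicle 1 and chow vehicle 0. The part of choroid plexus or meningeal RNA in the Dsp values was not tested. The arrays fell into separate clusters on the choroid plexus list, so no p-value is given for these correlations.

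**Figure D4:**
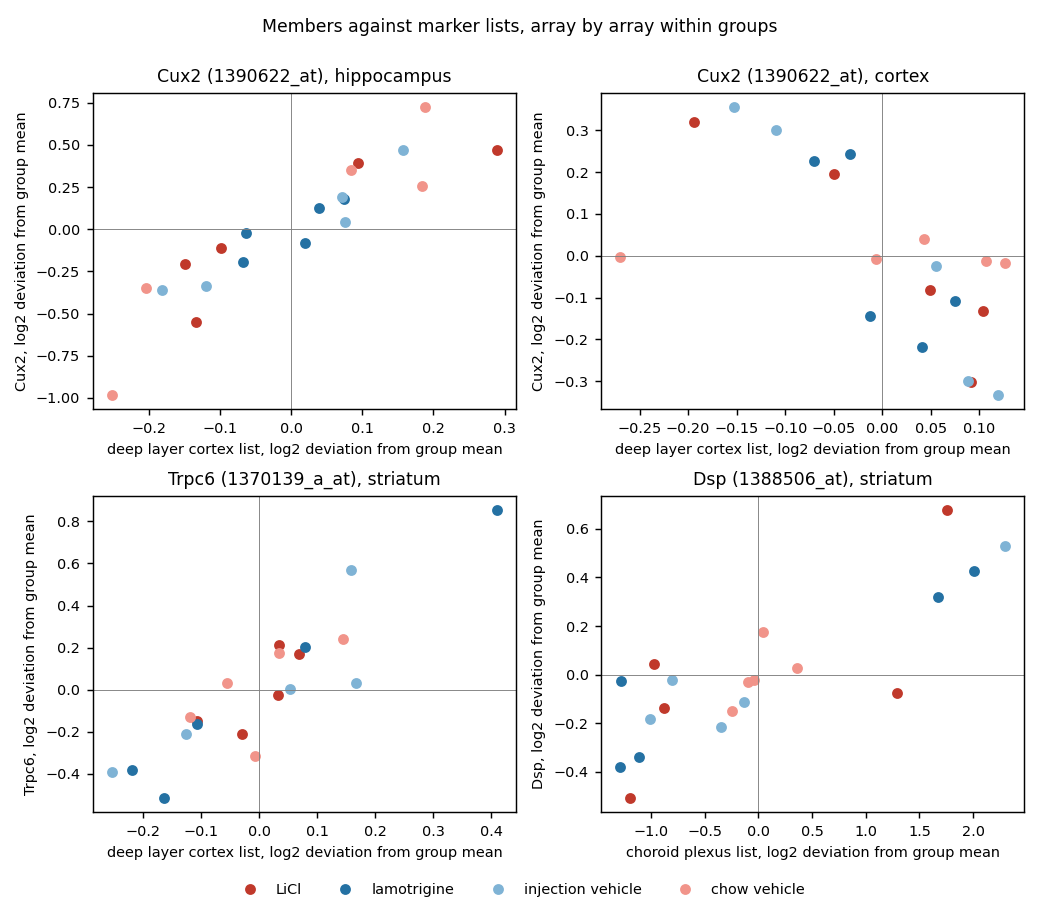
Deviation of a gene from its group mean (y axis, log2) against the mean deviation of a marker list (x axis, log2), 1 point per array, 20 arrays per panel, coloured by treatment. Cux2 follows the deep-layer list in the hippocampus (r = 0.91) and runs against it in the cortex (r = -0.69), Trpc6 follows it in the striatum (r = 0.89), and Dsp (1388506_at) is above its group mean in 4 of the 5 striatal arrays at the right of its panel.

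The genes whose 12 group means most resembled those of each gene were taken by Pearson correlation among 3439 genes with an SD of at least 0.25 over the group means. For Cux2 they were Elp3 (r = 0.996), Septin6 (0.994) and Catsperz (0.992), and for Fezf2 Lsm11, Tagln3 and Ptpn3 (each 0.998). Trpc6 was most like Bdnf, the neurotrophin (0.996), Kcnj6, a G protein-gated potassium channel (0.995), and Tafa1 (0.994), and Kcnip4 most like Cd83 (0.997), Herc3 and Fbxo9 (each 0.996). These means include the differences between the 3 regions. Dsp and Tdo2 reached only 0.60 and 0.67, both with RT1-CE12, a class I histocompatibility gene.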

How the data were processed

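Per the submitters' notes, the authors derived the deposited intensities with RMA under R 2.7.2 (background correction, normalization between arrays, a value per probe set), and left them linear. Log2 was taken here, without a pseudocount. Depth does not apply to arrays, and their number limits the precision. The descriptions number 24 animals but do not call replicates separate animals throughout, so p-values measure the spread among the arrays given. Control probe sets (57 of 31099) were left out. Of the 31042 tested, 20826 carry 1 symbol, 436 several and 9780 none in the platform annotation. No 2 arrays were identical.

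Each region was fitted over its 20 arrays, 4 groups, with limma 3.58.1 in R 4.3.3 (lmFit, eBayes with intensity trend). Regions were compared in 1 fit of 60 arrays with the animal number as a random block (consensus correlation 0.133). Tests were two-sided, adjusted by Benjamini and Hochberg over all probe sets. Scripts were tested on simulated data. Correlations used 100000 permutations in Python 3.11.15 (numpy 2.4.6, pandas 2.3.3, scipy 1.17.1).

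The members, the 13 marker lists and the tests were chosen with earlier results of these data known. Named were all members, for each list up to 3 called genes with the largest change, and for likeness 3 genes per member; genes shown for the tissue check were chosen after their values were seen. Alternatives were another normalization, centring, a filter on dim probe sets (mean log2 under 6), no trend, array width as a covariate, a replicate block, fewer arrays and arrays left out.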

Additional observations from a re-analysis of the deposited data

Results flagged for a closer look

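Of 108 groups of 5 arrays 7 had 1 array apart from the other 4 by Dixon's test, and chance flags about 1 in 20. In the cortex of chow vehicle rats, Cux2 (1390622_at) was 9.005 in replicate 5, against 8.95 to 8.96 in the others, a gap large only beside the tightness of that group. Replicate 1 of the same group had Cux2 (1382202_at) at 8.64, against 7.58 to 7.83 in the others, and Fezf2 at 8.65, against 8.97 to 9.02. Fezf2 was 8.89 in hippocampus chow vehicle replicate 4, against 8.61 to 8.69. Kcnip4 (1370595_a_at) was 8.51 in hippocampus lamotrigine replicate 2, against 8.14 to 8.24. In the striatum, Dsp was 5.82 (1392258_at) in lamotrigine replicate 3, against 6.10 to 6.21, and 5.65 (1388506_at) in injection vehicle replicate 2, against 4.90 to 5.10. The last 2 of these arrays were among the 5 of the striatum with high choroid plexus genes.

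The LiCl difference varied between regions by the F test in limma for Trpc6 (adjusted p = 0.0279), Dsp (1392258_at, adjusted p = 0.00168) and Tdo2 (adjusted p = 0.00166). Trpc6 was lower with LiCl in the cortex and higher, without passing, in the other regions, and Dsp and Tdo2 were higher in the cortex and lower, without passing, in the other regions. With the width of each array as a covariate none of these 3 passed (adjusted p = 0.89 for Trpc6, 0.763 for Dsp and 0.877 for Tdo2). In the cortex array width and LiCl cannot be told apart.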

How the results depend on the processing

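The count of 7 called probe sets for LiCl in the cortex became 3 with quantile normalization and 0 with array width as a covariate, and lay between 5 and 7 with 1 array left out. Against the injection vehicle, an alternative chosen after seeing the data, it was 3 (23.3% of all probe sets were called), and the counts of 0 in the hippocampus and striatum became 2 and 1 (18.8% and 16.9% of all), near the share over all. Reversals were counted where a sign changed and either value was called: Fezf2 in the cortex (0.0068) and Kcnip4 (1370595_a_at) in the hippocampus (-0.74), both against the injection vehicle, and Trpc6 between hippocampus and cortex with chow vehicle arrays alone (-0.061). The count of 2 between the vehicles of the hippocampus became 1 with quantile normalization, median centring, no intensity trend, array width as a covariate, arrays high in choroid plexus genes left out, or only the groups compared, and lay between 1 and 3 with 1 array left out. The count of 3 LiCl differences that varied between regions became 1 with quantile normalization, 1 without dim probe sets (6 of the 9 then tested) and 0 with array width as a covariate. The cause was not tested, apart from the smaller number tested without dim probe sets. All other counts stayed within 1.5 times. With the replicate block the LiCl count in the cortex was 7, and the only call lost was Cux2 (1390622_at) between the vehicles of the cortex (adjusted p = 0.0561 in limma). Same-numbered arrays correlated between -0.539 and 0.235 in their deviations, over 0.1 in at most 1 of 5 pairs of any comparison, so they share only a number.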
